A study of Homo sapiens with 48 samples.

Results

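The integrated stress response genes described here are 41 genes controlled by, or listed as targets of, the transcription factor ATF4, among them 12 cytosolic tRNA synthetases. They were taken by gene symbol from a table of 25066 genes, of which 13881, including all 41 members, held enough reads to be tested. Read counts came from 48 RNA-seq libraries of TMD8 and HBL1, a pair of Cas9-engineered human diffuse large B cell lymphoma (DLBCL) lines, each grown in advanced RPMI with 5% FBS. Each line received NGI-1 (5 µM), acalabrutinib (50 nM), copanlisib (20 nM) or the solvent DMSO alone for 3, 6 or 24 h, which gave 24 groups of 2 libraries. NGI-1 inhibits the oligosaccharyltransferase that attaches N-glycans to proteins in the endoplasmic reticulum. Acalabrutinib inhibits the kinase BTK, and copanlisib inhibits the lipid kinase PI3K. All groups, controls included, carry Cas9. One dose of each compound was used, and both lines are cultures with no other cell type added.

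When unfolded proteins gather in the endoplasmic reticulum, or amino acids run short, a kinase phosphorylates the translation factor eIF2, which slows most protein synthesis but favours translation of ATF4 mRNA. ATF4 protein then binds C/EBP-ATF response elements (CARE) and raises genes for amino acid synthesis, amino acid import and tRNA charging, together with stress regulators such as DDIT3 (CHOP), TRIB3 and CHAC1. As ATF4 is controlled in large part at translation, mRNA counts follow its targets but not the ATF4 protein.

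The CARE sequence was looked up in the RefSeq promoter windows of the members (GRCh38.p14, 250 bases before to 50 after each start), which held 34 of the 41. The 7 others have no sequence shown. The letters TGATGNAA, searched on both strands, stood in 15 of the 34 members (44.1%), against 4.46% of 27305 genes with a window. With C at the variable base (TGATGCAA, a subset of the first motif), 10 of the 34 (29.4%) and 1.08% of all genes held a match. Members were collected partly as known ATF4 targets, so the share is a description of the list. The windows below are shown because they belong to genes whose levels carry the results, with the motif in capitals, each written 5′ to 3′ on the strand that reads TGATG.
CHAC1: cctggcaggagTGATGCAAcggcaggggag
ASNS: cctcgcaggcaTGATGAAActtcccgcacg
SLC1A4: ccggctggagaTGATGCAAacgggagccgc
SLC1A5: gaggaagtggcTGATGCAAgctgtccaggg
AARS: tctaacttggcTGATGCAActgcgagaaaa
CARS: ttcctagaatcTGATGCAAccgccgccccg
MARS: gaatccctcgcTGATGCAAccggaaccggc
TARS: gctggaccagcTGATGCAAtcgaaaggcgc

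CHAC1 lies on the plus strand, and its motif stands 209 bases upstream of the start on the minus strand (chr15:40953251-40953280). In ASNS, a minus-strand gene, the motif is 68 bases upstream on the same strand (chr7:97872458-97872487) and has A at the variable base. The SLC1A4 match, on the strand opposite to the gene, is 7 bases upstream (chr2:64989381-64989410), and that of SLC1A5 is 97 bases upstream on the gene's own strand (chr19:46784893-46784922). AARS (AARS1 in RefSeq) has its match 187 bases upstream (chr16:70289675-70289704), CARS (CARS1) 2 bases upstream (chr11:3057407-3057436) and MARS (MARS1) 4 bases upstream (chr12:57488053-57488082). The TARS (TARS1) match begins 3 bases after the start (chr5:33440956-33440985). Distances are those of the first base of the match along the gene, and coordinates are those of the windows shown. The matches of SLC1A4, CARS and MARS thus run across the start. Among the 10 member synthetases with a window, 7 held the motif. CRE (TGACGTCA) stood in 1 member, PPP1R15A, against 2.25% of all genes, and the endoplasmic reticulum stress element ERSE in 0, against 0.0916%. After NGI-1 in TMD8, 6 of 15 members with a match and 7 of 19 without were called higher at 3 h. At 6 h these were 9 of 15 and 11 of 19, and in HBL1 at 6 h 3 of 15 and 0 of 19. All tested genes were called higher at 0.569% and 2.26% in TMD8 at 3 and 6 h, and at 1.08% in HBL1 at 6 h. Called lower in HBL1 at 24 h were 9 of 15 with a match and 6 of 19 without for NGI-1. The counts were 11 of 15 and 7 of 19 for acalabrutinib, and 13 of 15 and 9 of 19 for copanlisib. Of all genes, 11.4%, 11.4% and 17.7% were lower there. In TMD8 at 24 h NGI-1 gave 4 of 15 and 3 of 19 lower, and acalabrutinib 9 of 15 and 11 of 19. Copanlisib gave 8 of 15 and 9 of 19. The shares of all genes lower in TMD8 were 14.8%, 15.5% and 16%. The difference between members with and without a match was not tested.

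Levels are given in CPM, read counts relative to library size after scaling for composition. Differences are log2 fold changes ± SE of compound over DMSO, matched for line and time, from 2 libraries per group. A gene was called when edgeR's quasi-likelihood test gave a Benjamini-Hochberg adjusted p under 0.05 over all tested genes of that comparison. Whether the libraries of a group are separate cultures is not stated in the labels, so the p-values cover only the spread between these libraries, which may be technical. The 18 comparisons with DMSO use the same 12 DMSO libraries, so compounds at one time and line share their controls. Libraries held 7165377 to 11999050 reads, and log2 CPM correlated at 0.9895 to 0.9926 within groups. For 26 libraries the nearest other library had the same replicate number but another compound. In HBL1 at 3 and 6 h, the library numbered 2 lay above the library numbered 1 in each of the 8 groups, DMSO included, for DDIT3, TRIB3, SESN2, PPP1R15A and SLC7A11. The 7 B cell markers examined were all expressed (summed level 2950 to 6030 CPM). CD3D, CD3E and CD3G of T cells were at or below 0.29 CPM, and CD8A reached 2.3 CPM. GZMB, also listed as a T and NK cell gene, held 205 to 799 CPM in TMD8 and 15.4 to 49.6 in HBL1. Of the stromal or epithelial genes examined, EPCAM held 7.15 to 15.9 CPM in HBL1, PECAM1 4.31 to 28.8 and COL1A2 2.79 to 15.2. COL1A1 and KRT19 reached 0.962 and 0.102 CPM there, and the highest value of that list in TMD8 was 4.19 CPM, of COL1A1. In bulk RNA, fewer cells expressing a gene and less RNA per cell cannot be told apart.

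**Figure D1:**
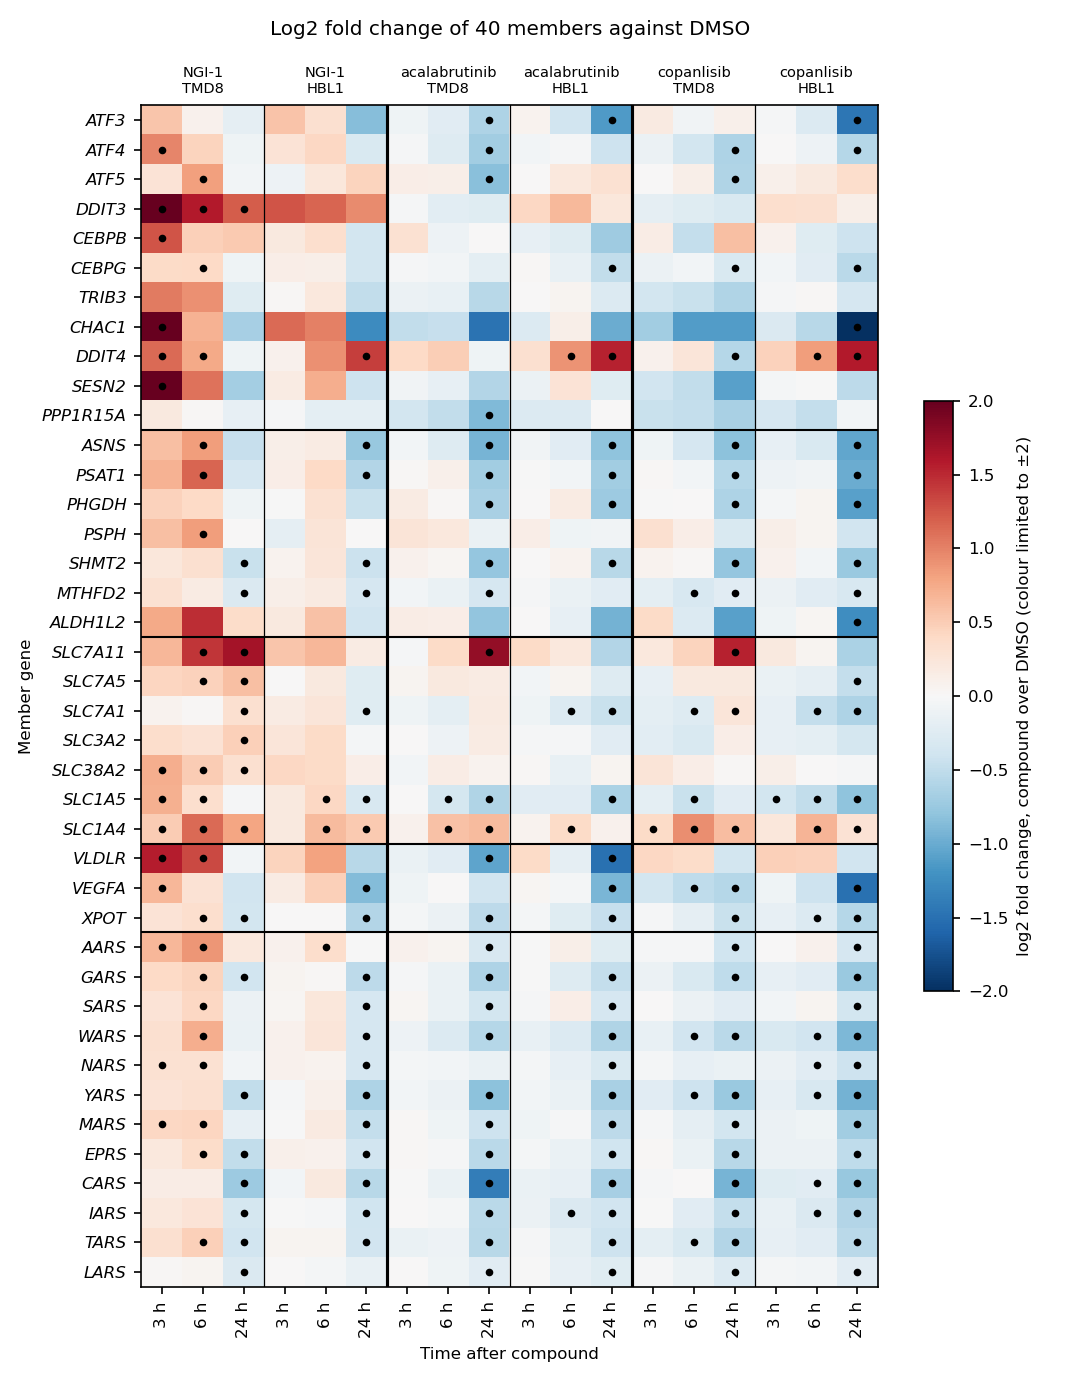
Log2 fold changes of the members against DMSO, genes down the page in 5 role blocks and the 18 combinations of line, compound and time across. Colour runs from lower to higher and is limited to ±2, and dots mark genes called at an adjusted p under 0.05. STC2 is left out because TMD8 held almost no reads of it. NGI-1 columns of TMD8 at 3 and 6 h are mostly higher, and the 24 h columns of all 3 compounds are mostly lower outside the transporters.

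In TMD8, NGI-1 raised stress regulators within 3 h. Of the 41 members, 14 were higher and 0 lower, against 0.569% and 0.166% of all tested genes, and the median log2 fold change was 0.43 for the members and 0 for all genes. By 6 h 22 members were higher and 0 lower (2.26% and 1.99% of all genes), with a median of 0.44. Among the 11 transcription factors and stress regulators, 6 were called at 3 h (CHAC1, DDIT3, SESN2, CEBPB, DDIT4 and ATF4) and 4 at 6 h (DDIT3, ATF5, DDIT4 and CEBPG).

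CHAC1, which encodes a glutathione-degrading enzyme, held 49.1 and 50.4 CPM with NGI-1 at 3 h in TMD8, against 5.73 and 7.37 CPM with DMSO. The groups were far apart, with a log2 fold change of 2.94 ± 0.47 (adjusted p = 0.00053), although the adjusted p was 0.053 without DMSO replicate 1. At 6 h it stood at 12.7 and 11.8 CPM against 9.39 and 5.62 in DMSO, and was no longer called (0.70 ± 0.49, adjusted p = 0.54). DDIT3, the transcription factor CHOP, had 61.2 and 62.6 CPM with NGI-1 at 3 h and 13.7 and 13.4 with DMSO (2.19 ± 0.32, adjusted p = 0.00015). It remained above both DMSO libraries at 6 h, with 36.2 and 32 CPM against 13.3 and 9.25 (1.59 ± 0.33, adjusted p = 0.0039, and 0.076 without DMSO replicate 2). At 24 h it had 18.3 and 15.7 CPM against 6.35 and 8.3 (1.21 ± 0.37, adjusted p = 0.014). That last call ended without DMSO replicate 1 (0.11) or NGI-1 replicate 1 (0.091). DDIT3 was thus the regulator called at all 3 times in TMD8.

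ATF4 mRNA itself had 528 and 504 CPM with NGI-1 at 3 h, against 259 and 264 with DMSO (0.98 ± 0.16, adjusted p = 0.00053). It lay above both DMSO libraries at 6 h too (314 and 322 against 246 and 224 CPM), but was not called (0.44 ± 0.16, adjusted p = 0.14). SESN2, a leucine sensor that restrains mTORC1, had 25.5 and 18.2 CPM with NGI-1 at 3 h, against 4.35 and 5.35 in DMSO (2.18 ± 0.44, adjusted p = 0.011). It was not called without DMSO replicate 1 (0.26), NGI-1 replicate 1 (0.25) or DMSO replicate 2 (0.082). DDIT4, another inhibitor of mTORC1 signalling, had 106 and 114 CPM against 52.6 and 47.7 (1.14 ± 0.16, adjusted p = 1.2e-05). The C/EBP factor CEBPB, at 10.1 and 8.44 CPM against 4.03 and 3.61, was called (1.26 ± 0.31, adjusted p = 0.028) but lost the call without any of the 4 libraries (0.06 to 0.38). The calls of ATF4, DDIT3 and DDIT4 at 3 h held with each library left out.

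TRIB3, a pseudokinase induced by CHOP and ATF4, was not called in any of the 18 comparisons with DMSO. With NGI-1 at 3 h in TMD8 it had 120 and 116 CPM, against 58.1 and 56.8 with DMSO (1.04 ± 0.28, adjusted p = 0.11). Both treated libraries lay above both controls. The SE comes from the fit over all 48 libraries, and TRIB3 differed between libraries of a group in HBL1 (62.3 and 117 CPM with NGI-1 at 3 h). ATF3 likewise had 106 and 105 CPM against 74 and 68.5 and was not called at 3 h (0.56 ± 0.16, adjusted p = 0.12). PPP1R15A, which encodes the phosphatase subunit GADD34 that reverses eIF2 phosphorylation, had 228 and 308 CPM against 217 and 252 (0.19 ± 0.31, adjusted p = 0.98). The groups of PPP1R15A overlapped.

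**Figure D2:**
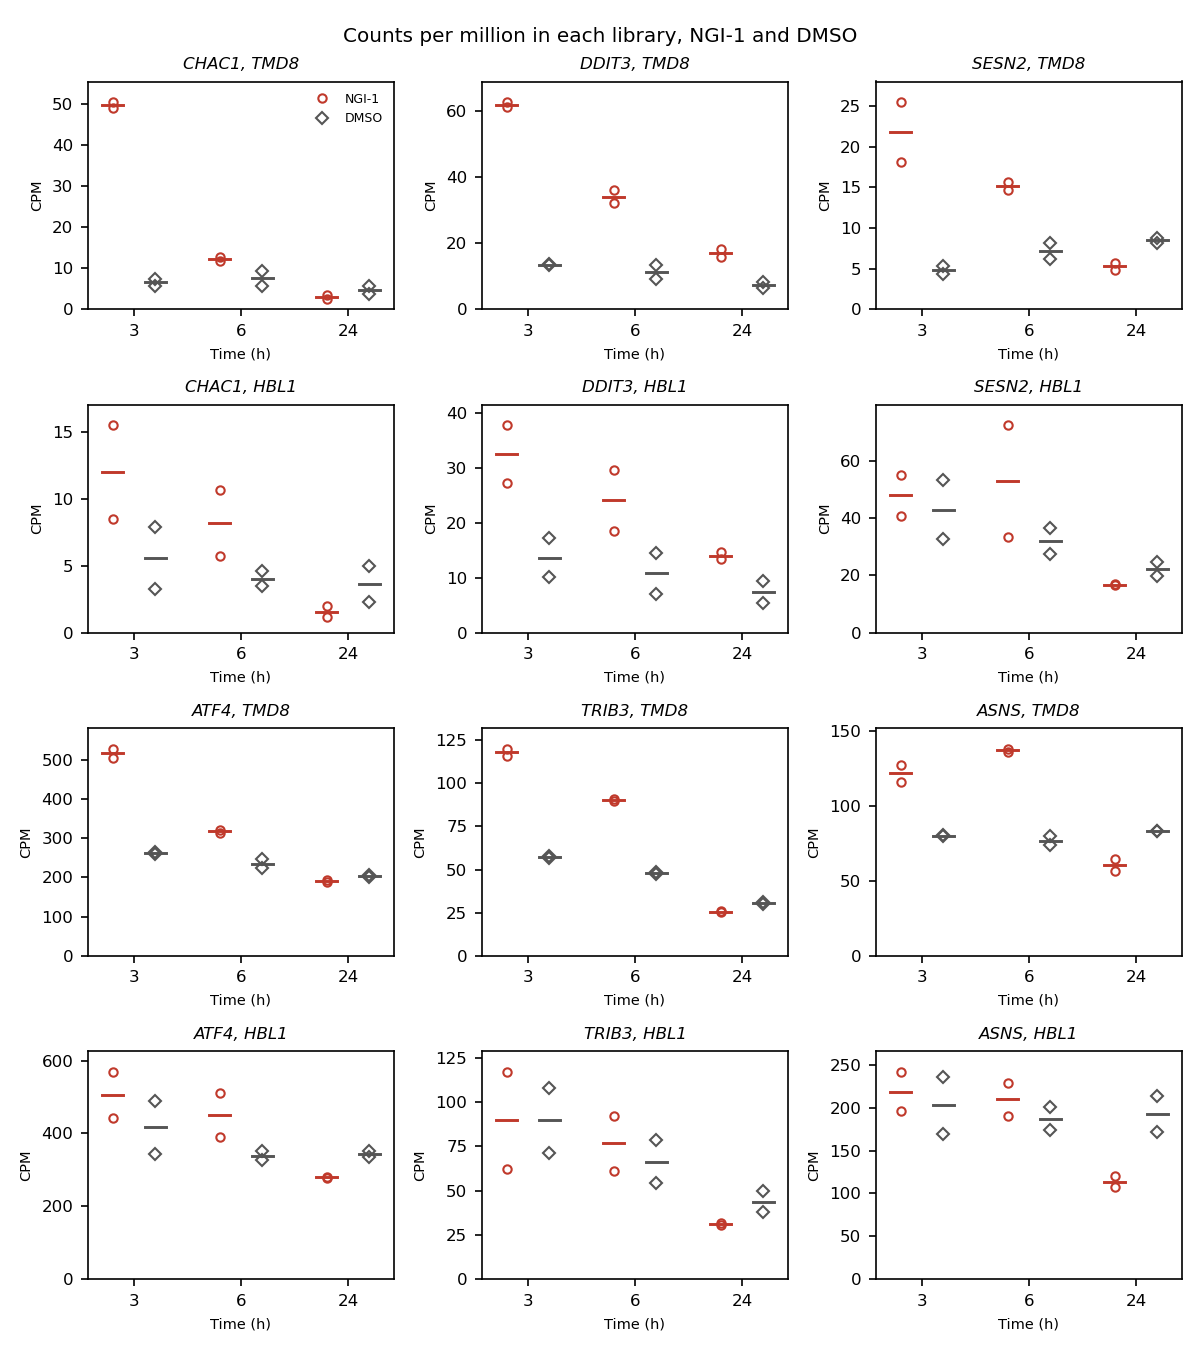
CPM of CHAC1, DDIT3, SESN2, ATF4, TRIB3 and ASNS by time (3, 6 and 24 h) in each line, with each NGI-1 library (circles) and DMSO library (diamonds) as a point, short bars at group means, and axes starting at 0. In TMD8 the NGI-1 points at 3 h stand above DMSO in every panel, for example 49.1 and 50.4 CPM of CHAC1 against 5.73 and 7.37, and at 24 h DDIT3 is the one of the 6 still called.

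Genes of amino acid synthesis were called at 6 h. Of the 7, 0 were called at 3 h in TMD8 (5 had an unadjusted p under 0.05 in edgeR), when their log2 fold changes ran from 0.22 to 0.75 with a median of 0.60. At 6 h, with a median of 0.84, PSAT1, ASNS and PSPH were called higher. The shares of all genes called higher were 0.569% at 3 h and 2.26% at 6 h. The 6 h effects were not tested against those at 3 h. PSAT1, an enzyme of serine synthesis, had 292 and 281 CPM with NGI-1 against 120 and 135 with DMSO (1.16 ± 0.19, adjusted p = 0.00029). PSPH, which completes serine synthesis, had 25.4 and 25.7 CPM against 15 and 13.5 (0.84 ± 0.16, adjusted p = 0.00048). Neither pair of groups overlapped, and both calls held with each library left out. ASNS, asparagine synthetase, had 138 and 136 CPM against 73.6 and 79.6 in DMSO (0.84 ± 0.18, adjusted p = 0.0049, and 0.11 without DMSO replicate 1). ALDH1L2, a mitochondrial folate enzyme, had 21.9 and 18.7 CPM against 6.47 and 8.04 without being called (1.48 ± 0.47, adjusted p = 0.08). PHGDH, SHMT2 and MTHFD2 were not called at 6 h, with values of 0.40, 0.32 and 0.17.

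Amino acid transporters were called higher in TMD8 at every time, 3 of 7 at 3 h, 5 at 6 h and 6 at 24 h. The matching shares of all genes were 0.569%, 2.26% and 15.6%. Among the 6 at 24 h, SLC7A11, SLC7A5, SLC7A1 and SLC1A4 were themselves called lower in DMSO at 24 h than at 3 h. The 24 h calls of SLC3A2 and SLC38A2 depended on single libraries. SLC38A2, a sodium-coupled neutral amino acid importer, had 372 and 343 CPM with NGI-1 at 3 h, against 226 and 209 with DMSO (0.72 ± 0.11, adjusted p = 3.1e-05). The glutamine transporter SLC1A5 had 417 and 362 CPM against 237 and 239 at 3 h (0.71 ± 0.09, adjusted p = 8.8e-07). Both calls held with each library left out. SLC1A4, a carrier of alanine, serine and cysteine, had 106 and 115 CPM with NGI-1 at 6 h and 49.9 and 50.5 CPM with DMSO (1.14 ± 0.09, adjusted p = 3.5e-12), the smallest p of any member in the early NGI-1 comparisons. Its DMSO level was lower at 6 h than at 3 h, where it reached 97.2 CPM. At 3 h SLC1A4 was called too (0.50 ± 0.09, adjusted p = 0.00053), but not without DMSO replicate 1 (0.14). SLC7A11, the cystine importer, had 124 and 126 CPM against 45.9 and 46.8 at 6 h (1.43 ± 0.34, adjusted p = 0.013), but no call remained when any one of the 4 libraries was left out (0.068 to 0.16).

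VLDLR, a lipoprotein receptor, had 19.2 and 13.9 CPM with NGI-1 at 3 h in TMD8, against 5.63 and 5.49 with DMSO (1.57 ± 0.24, adjusted p = 3.3e-05). At 6 h its values were 14.7 and 12 against 5.43 and 5.29 CPM (1.32 ± 0.24, adjusted p = 0.00027). Both calls held with each library left out. VEGFA, an angiogenic growth factor, had 69.7 and 67.7 CPM against 41.6 and 44.7 at 3 h (0.67 ± 0.16, adjusted p = 0.03), and that call was lost without any one of the 4 libraries (0.13 to 0.4). STC2, a secreted glycoprotein, had 0 reads in all TMD8 libraries but 2, at 0.11 and 0.145 CPM, and 4.84 to 15.4 CPM in HBL1. It passed the filter through HBL1, and no fold is given for TMD8.

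Of the 12 member synthetases, which join amino acids to their tRNAs, 3 were called higher in TMD8 at 3 h and 8 at 6 h, none lower, with medians of 0.29 and 0.39. All tested genes were higher at 0.569% and 2.26%, and lower at 0.166% and 1.99%, at these times. AARS, for alanine, led with 287 and 258 CPM against 165 and 180 at 3 h (0.66 ± 0.09, adjusted p = 7.2e-06) and 323 and 281 CPM against 162 and 164 at 6 h (0.89 ± 0.09, adjusted p = 2e-09). WARS, for tryptophan, had 421 and 391 CPM against 242 and 250 at 6 h (0.72 ± 0.11, adjusted p = 1.2e-05). TARS, for threonine, had 266 and 258 CPM against 185 and 191 at 6 h (0.48 ± 0.09, adjusted p = 0.00018). These 4 calls held with each library left out, while at 6 h GARS, SARS, NARS, MARS and EPRS each lost theirs without at least 1 library (0.078 to 0.32). The calls of MARS and NARS at 3 h were lost without NGI-1 replicate 1 (0.38 and 0.67) or DMSO replicate 2 (0.06 and 0.68), and that of MARS also without DMSO replicate 1 (0.37). CARS, IARS, LARS and YARS were not called at 6 h, with values of 0.15, 0.28, 0.05 and 0.32. The 8 cytosolic synthetase genes outside the members had 0 calls at 3 h and 0 at 6 h, with medians of -0.05 and -0.08 (1 and 0 at an unadjusted p under 0.05). Of 17 mitochondrial synthetases 0 were called at 3 h (1 at an unadjusted p under 0.05), and MARS2 was lower at 6 h. The member synthetases were listed partly as ATF4 targets, and the difference between the lists was not tested.

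The counts in TMD8 depended on single libraries. The 14 members at 3 h became 8 without DMSO replicate 1, 9 without NGI-1 replicate 1 and 9 without DMSO replicate 2. The 22 at 6 h became 13, 12 and 13 without the same 3 libraries. A group left with 1 library has less power by construction.

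In HBL1 the early calls with NGI-1 were 3 transporter and synthetase genes at 6 h. At 3 h, 0 of 41 members were called in either direction, against 0.353% higher and 0% lower of all genes. There edgeR gave 6 members at an unadjusted p under 0.05, and 2 were called by DESeq2. At 6 h 3 were higher, SLC1A4, SLC1A5 and AARS, and 0 lower (1.08% and 0.072% of all genes). Of these 3, SLC1A4 alone kept its call without DMSO replicate 1, DMSO replicate 2 or NGI-1 replicate 2. With the replicate number as a block within line and time, 8 and 24 members were called in HBL1 at 3 and 6 h, and 36 and 34 in TMD8. SLC1A4 had 174 and 189 CPM with NGI-1 against 117 and 117 with DMSO at 6 h (0.63 ± 0.09, adjusted p = 3.5e-06) and was the call that held with each library left out. SLC1A5 had 231 and 214 CPM against 174 and 161 (0.41 ± 0.09, adjusted p = 0.0094), and its call was lost without any one of the 4 libraries (0.059 to 0.16). For AARS, 302 and 331 CPM stood against 238 and 261 (0.35 ± 0.09, adjusted p = 0.046), with the call lost without DMSO replicate 1 (0.57), NGI-1 replicate 2 (0.63) or DMSO replicate 2 (0.062).

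Several members had higher values with NGI-1 in HBL1 that missed the threshold. DDIT3 had 27.3 and 37.8 CPM at 3 h, against 10.1 and 17.2 in DMSO (1.26 ± 0.32, adjusted p = 0.097), and CHAC1 had 8.52 and 15.5 against 3.27 and 7.87 (1.13 ± 0.50, adjusted p = 0.84). The groups of DDIT3 and CHAC1 did not overlap. ATF4 had 443 and 569 CPM against 344 and 490 (0.28 ± 0.16, adjusted p = 1), and TRIB3 had 62.3 and 117 against 71.2 and 108 (0.02 ± 0.27, adjusted p = 1), both with overlapping groups. The member medians in HBL1 were 0.10 at 3 h and 0.24 at 6 h.

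Tested directly, the difference between the lines was not called for any member at 3 or 6 h, with 0 calls in each and 0.0144% and 0.0216% of all genes. At 3 h 21 members had an unadjusted p under 0.05, all with the larger log2 fold change in TMD8, and DESeq2 called 0. The largest of those by p was AARS (TMD8 minus HBL1, 0.58 ± 0.13, adjusted p = 0.26). At 6 h the same numbers were 13 and 1. In this fit, which has no replicate block, the calls in 1 line and not the other are therefore not shown to be a difference between the lines. Summed over compounds and times, more line differences were called without a filter or with a replicate block within line and time, as given at the end.

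Other genes of the pathway were examined as lists, picked from knowledge of the pathway with earlier results of these data known. With NGI-1 at 3 and 6 h, 0.569% and 2.26% of all genes were higher in TMD8, and 0.353% and 1.08% in HBL1. Of 18 tested further ATF4 and amino acid response genes, 0 were called in TMD8 at 3 h (3 at an unadjusted p under 0.05) and 5 were higher at 6 h (median 0.37), among them SLC6A9 (2.42 ± 0.44), CTH (1.60 ± 0.30) and WIPI1 (1.00 ± 0.24). In HBL1 KLHL24 was the single call at 3 h and at 6 h. KLHL24 was also called higher there with acalabrutinib and with copanlisib at both times. It was lower with NGI-1 than with copanlisib at both times. Of 16 genes for eIF2, its exchange factor and its kinases, 2 were higher in both lines at 3 and 6 h. These were DNAJC3 (p58IPK, an inhibitor of the eIF2 kinases) and EIF2AK3, which encodes the endoplasmic reticulum kinase PERK. DNAJC3 was higher by 1.38 ± 0.21 in TMD8 and by 1.12 ± 0.20 in HBL1 at 3 h (adjusted p = 0.00032 and 0.0066), and EIF2AK3 by 0.81 ± 0.14 and 0.74 ± 0.13 (adjusted p = 0.00042 and 0.00083). Both genes were thus called in HBL1 at a time when 0 members were.

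At 24 h NGI-1 lowered many of the synthetase genes in both lines. In TMD8 7 members were higher and 10 lower, against 15.6% and 14.8% of all genes, so the higher share was near that of all genes. In HBL1 2 were higher and 18 lower, against 7.87% and 11.4%. Member medians were -0.12 in TMD8 and -0.37 in HBL1, with 0.01 and 0 for all genes. Without DMSO replicate 1 the 17 calls in TMD8 became 11, and the 20 in HBL1 became 11. Of the 12 synthetases, 7 were lower in TMD8 and 10 in HBL1. Some of them, such as IARS in both lines and EPRS and TARS in TMD8, were called higher in DMSO at 24 h than at 3 h. Of the 7 transporters, 6 were higher in TMD8, the exception being SLC1A5 (-0.02). SLC7A11, SLC7A5, SLC7A1 and SLC1A4 were called lower in TMD8 DMSO at 24 h than at 3 h. In HBL1 SLC1A4 was higher with NGI-1, and SLC1A5 and SLC7A1 were lower.

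The change of the NGI-1 effect with time was tested as the effect at 24 h minus that at 3 h. In TMD8 24 members were lower and 0 higher (5.96% and 6.02% of all genes), and in HBL1 14 were lower and 0 higher (2.54% and 2.26%). CHAC1 moved most in TMD8 (-3.60 ± 0.79), followed by SESN2 (-2.86 ± 0.66) and VLDLR (-1.63 ± 0.34). ATF4 moved by -1.07 ± 0.23 and ASNS by -1.06 ± 0.26. In HBL1 ASNS moved by -0.88 ± 0.24 and VEGFA by -1.02 ± 0.24. The same test with acalabrutinib gave 2 higher and 16 lower members in TMD8 (6.59% and 7.8% of all genes) and 0 higher and 6 lower in HBL1 (1.92% and 2.03%). With copanlisib it gave 1 higher and 7 lower in TMD8 (5.06% and 5.86%) and 0 higher and 17 lower in HBL1 (3.59% and 5.72%). XPOT (the tRNA exporter), GARS, EPRS and TARS were called higher at 6 h and lower at 24 h in TMD8. XPOT had 298 and 290 CPM with NGI-1 at 6 h against 231 and 233 with DMSO, and 187 and 175 CPM at 24 h against 243 and 226. Its groups were apart in opposite directions at the 2 times. The call at 6 h (0.34 ± 0.08, adjusted p = 0.0081) was lost without any one library (0.052 to 0.12), while that at 24 h held (-0.37 ± 0.08, adjusted p = 0.00047).

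The kinase inhibitors left the members nearly without calls at 3 h. With acalabrutinib 0 members were called in TMD8 (0% of all genes higher, 0.339% lower) and 0 in HBL1 (0.0288% and 0.195%). Each line had 1 member at an unadjusted p under 0.05, with 0 calls by DESeq2. With copanlisib SLC1A4 was higher in TMD8 (0.656% and 1.06% of all genes) and SLC1A5 lower in HBL1 (0.85% and 1.37%). Both depended on single libraries. SLC1A4 (0.38 ± 0.09, adjusted p = 0.012) was lost without DMSO replicate 1 (0.39) or copanlisib replicate 2 (0.22), and SLC1A5 (-0.36 ± 0.10, adjusted p = 0.031) without any of the 4 (0.081 to 0.21). DDIT3 in TMD8 had 13.8 and 13.1 CPM with acalabrutinib, 12.7 and 11.3 with copanlisib, and 13.7 and 13.4 with DMSO.

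At 6 h acalabrutinib gave 1 higher and 1 lower member in TMD8 (1.7% and 2.8% of all genes) and 2 higher and 2 lower in HBL1 (2.46% and 3.16%). Copanlisib gave 1 higher and 7 lower in TMD8 (6.98% and 7.42%) and 2 higher and 8 lower in HBL1 (4.2% and 5.34%). SLC1A4 was the gene called higher with both inhibitors in both lines. It had 73.2 and 77.7 CPM with acalabrutinib and 96.8 and 95.1 with copanlisib, against 49.9 and 50.5 with DMSO in TMD8. In HBL1 it had 143 and 161, and 178 and 197, against 117 and 117 CPM. All treated libraries lay above the DMSO libraries, and the calls held with each library left out except acalabrutinib in HBL1 (0.063 without DMSO replicate 1, 0.17 without acalabrutinib replicate 2). Over the 3 times SLC1A4 in DMSO ran from 49.9 to 97.2 CPM in TMD8 and from 117 to 167 in HBL1. The lowest levels were at 6 h and the highest at 3 h, and 6 h acalabrutinib libraries lay below that highest level in both lines. SLC1A5 fell with copanlisib in both lines, to 206 and 180 CPM against 277 and 245 with DMSO in TMD8 (-0.44 ± 0.09, adjusted p = 0.00056), and to 123 and 113 against 174 and 161 in HBL1 (-0.50 ± 0.10, adjusted p = 0.00025). Without copanlisib replicate 2 the TMD8 call was lost (0.053). The 6 h counts were small and moved with single libraries: the 8 of copanlisib in TMD8 became 2 to 4 and the 10 in HBL1 became 4 without any one of the 4 libraries. The 4 of acalabrutinib in HBL1 became 0 to 2, and the 2 in TMD8 became 1 without DMSO replicate 1 or acalabrutinib replicate 2.

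**Figure D3:**
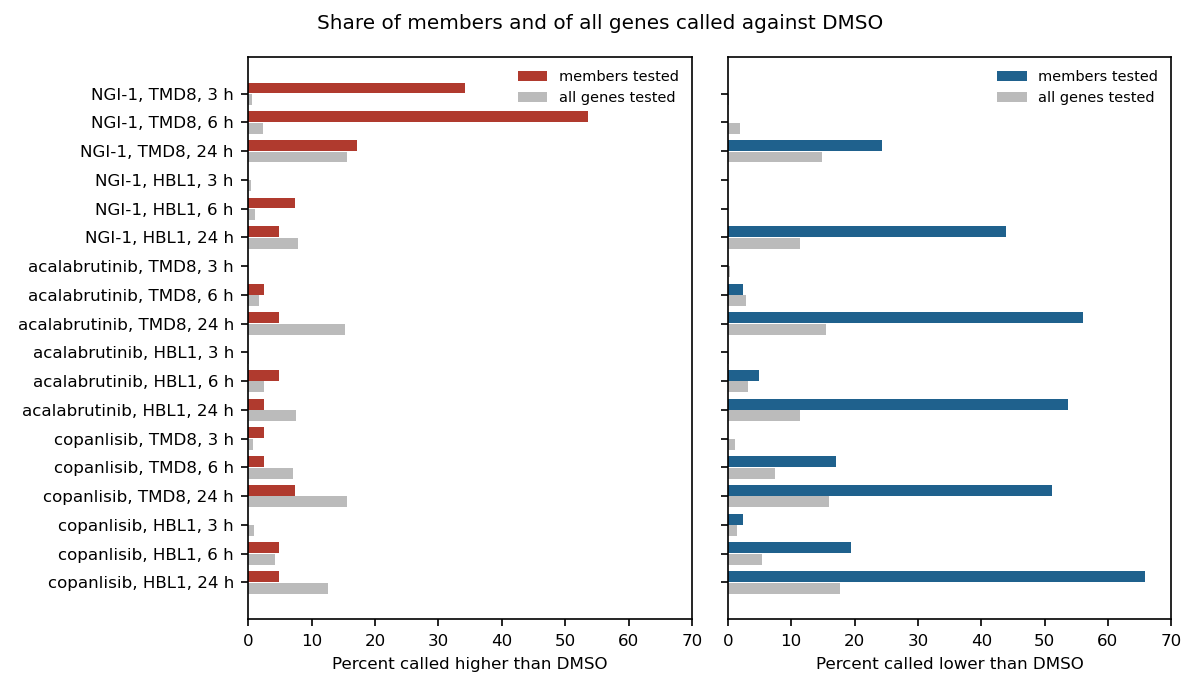
Percent of the 41 members and of the 13881 tested genes called higher (left panel) and lower (right panel) than DMSO in the 18 comparisons, with a pair of bars for each compound, line and time. Members exceed all genes on the higher side with NGI-1 in TMD8 at 3 and 6 h (34.1% and 53.7% called, all higher) and on the lower side with each compound at 24 h. They do so too on the higher side with NGI-1 in HBL1 at 6 h (7.32%, all genes 1.08%) and on the lower side with copanlisib at 6 h. There 7 members in TMD8 and 8 in HBL1 were lower (7.42% and 5.34% of all genes). Other bars where members exceed all genes are not listed here.

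At 24 h both kinase inhibitors lowered genes of amino acid synthesis and tRNA charging in both lines. Acalabrutinib gave 2 higher and 23 lower members in TMD8 (15.3% and 15.5% of all genes) and 1 higher and 22 lower in HBL1 (7.53% and 11.4%). Copanlisib gave 3 higher and 21 lower in TMD8 (15.6% and 16%) and 2 higher and 27 lower in HBL1 (12.5% and 17.7%). Medians were -0.54 and -0.45 for acalabrutinib and -0.44 and -0.54 for copanlisib in TMD8 and HBL1. Acalabrutinib's 23 calls in HBL1 became 13 without DMSO replicate 1 and 14 without acalabrutinib replicate 2. Of the 12 synthetases, acalabrutinib lowered 11 in each line, and copanlisib lowered 10 in TMD8 and 12 in HBL1. In TMD8 DMSO, AARS, LARS, NARS, EPRS, MARS, IARS and TARS were themselves called higher at 24 h than at 3 h. MARS, LARS and IARS were so in HBL1 DMSO.

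Called lower at 24 h in both lines with all 3 compounds were 8 members, SHMT2, XPOT, GARS, YARS, EPRS, CARS, IARS and TARS. These comparisons share their DMSO libraries within a line. The share of all genes lower in all 6 was not counted. In the single comparisons 11.4% to 17.7% of all genes were lower. CARS, the cysteinyl-tRNA synthetase, had the largest fall of the member synthetases in TMD8. It had 174 and 180 CPM with NGI-1, 116 and 110 with acalabrutinib and 163 and 144 with copanlisib, against 290 and 298 with DMSO. The changes were -0.73 ± 0.07, -1.38 ± 0.07 (adjusted p = 5.3e-19) and -0.93 ± 0.07, with no overlap with DMSO. In HBL1 CARS had 68.6 and 64.9, 61.5 and 62.5, and 58.7 and 57.7 CPM with the same compounds, against 100 and 96.3 (-0.56, -0.67 and -0.76 ± 0.08). All 6 calls held with each library left out.

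YARS, for tyrosine, had 194 and 187 CPM with NGI-1, 192 and 182 with acalabrutinib and 165 and 139 with copanlisib in HBL1, against 316 and 269 with DMSO (-0.62, -0.65 and -0.94 ± 0.10). WARS fell most with copanlisib in HBL1, to 192 and 152 CPM against 353 and 291 (-0.90 ± 0.11, adjusted p = 3e-08). SHMT2, the mitochondrial serine hydroxymethyltransferase, had 309 and 310, 261 and 234, and 260 and 233 CPM in TMD8 with NGI-1, acalabrutinib and copanlisib, against 424 and 421 with DMSO (-0.45, -0.77 and -0.78 ± 0.11). Each treated library of these genes lay below both controls. ASNS had 43.4 and 44.2 CPM with acalabrutinib and 49.9 and 44.4 with copanlisib in TMD8, against 83.5 and 83 with DMSO (-0.93 ± 0.19 and -0.82 ± 0.19). In HBL1 it had 120 and 108 CPM with NGI-1, 115 and 106 with acalabrutinib and 99.7 and 87.8 with copanlisib, against 214 and 172 (-0.76, -0.81 and -1.04). PHGDH, which opens serine synthesis, fell with both kinase inhibitors in both lines, by -0.65 and -0.72 with acalabrutinib and -0.61 and -1.08 with copanlisib in TMD8 and HBL1. Of these 4 calls the last held with each library left out, while the others were lost without 2 to 4 of their libraries (0.051 to 0.25). Without DMSO replicate 1 the NGI-1 and acalabrutinib calls of ASNS in HBL1 were lost (0.068 and 0.051).

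ATF4 mRNA was lower at 24 h in TMD8 with acalabrutinib, at 128 and 123 CPM, and with copanlisib, at 133 and 133, against 206 and 200 with DMSO (-0.70 and -0.61 ± 0.16). With NGI-1 it had 193 and 189 CPM there, below both DMSO libraries but not called (-0.09 ± 0.16, adjusted p = 0.74). In HBL1 copanlisib gave 225 and 238 CPM against 353 and 335 (-0.57 ± 0.16, adjusted p = 0.0068), lost without DMSO replicate 1 (0.058) or copanlisib replicate 1 (0.061). ATF3 was lower with acalabrutinib in both lines (-0.62 ± 0.19 in TMD8 and -1.13 ± 0.35 in HBL1), and CEBPG with copanlisib (-0.30 and -0.54), but each of these calls was lost without at least 1 library (0.051 to 0.3). ATF5 fell with acalabrutinib in TMD8, to 917 and 967 CPM against 1640 and 1720 (-0.83 ± 0.18, adjusted p = 0.00061), and in HBL1 had 1550 and 1510 against 1250 and 1220 (0.31 ± 0.17, adjusted p = 0.25). VEGFA fell with each compound in HBL1 at 24 h, to 19.3 and 23.3, 22.1 and 18.7, and 16.1 and 10.9 CPM with NGI-1, acalabrutinib and copanlisib, against 40.3 and 36.7 with DMSO (-0.86, -0.92 and -1.50).

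Most of the other cytosolic synthetases were also called lower at 24 h. Of all genes, 14.8%, 15.5% and 16% were lower in TMD8 with NGI-1, acalabrutinib and copanlisib, and 11.4%, 11.4% and 17.7% in HBL1. Higher were 15.6%, 15.3% and 15.6% in TMD8, and 7.87%, 7.53% and 12.5% in HBL1. Of the 8 other cytosolic synthetases, NGI-1 lowered 5 in TMD8 and 6 in HBL1, acalabrutinib 5 and 5, and copanlisib 5 and 6, with QARS higher in HBL1 (0.23 ± 0.07). Their medians ran from -0.33 to -0.47. VARS and FARSB in TMD8 were at -0.72 and -0.74 with NGI-1, -0.75 and -0.73 with acalabrutinib, and -0.75 and -0.74 with copanlisib. Of the 17 mitochondrial synthetases, 4 were lower in each line with NGI-1 and with acalabrutinib, 4 in TMD8 with copanlisib and 7 in HBL1. With NGI-1 this was 23.5% in each line, nearer the shares of all genes than the cytosolic counts were. Of the 18 further ATF4 and amino acid response genes, 4 were higher and 3 lower with NGI-1 in TMD8 (median 0.03), and 2 higher and 7 lower in HBL1. The NGI-1 counts in TMD8 were near the shares of all genes. Acalabrutinib gave 4 higher and 9 lower in TMD8 and 3 and 5 in HBL1, and copanlisib 3 higher and 8 lower in TMD8 and 2 and 8 in HBL1. KLHL24 was among the higher genes in all 6. MTHFD1L, a mitochondrial folate enzyme, was lower in all 6 (-0.59 to -1.45).

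**Figure D4:**
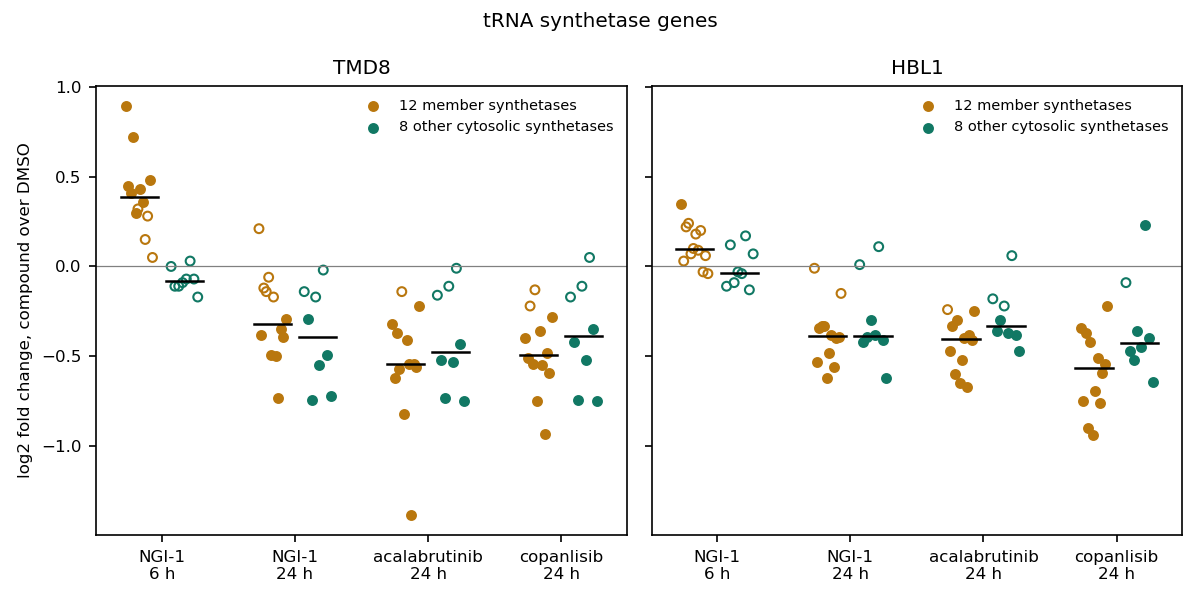
Log2 fold changes of the 12 member synthetases and the 8 other cytosolic synthetases over DMSO in TMD8 and HBL1, for NGI-1 at 6 and 24 h and acalabrutinib and copanlisib at 24 h. Filled points are called, open points are not, and bars mark medians. At 6 h of NGI-1 in TMD8 the member median is 0.39 and the other median -0.08, while at 24 h the medians of both sets lie below 0 with every compound.

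SLC7A11, SLC1A4 and DDIT4 stood on the other side of DMSO at 24 h. SLC7A11 in TMD8 had 111 and 107 CPM with NGI-1, 111 and 122 with acalabrutinib and 94.6 and 106 with copanlisib, against 34.3 and 34.6 with DMSO. The log2 fold changes were 1.66, 1.76 and 1.54 ± 0.35 (adjusted p = 0.00067, 0.00034 and 0.0014), and these calls held with each library left out. DMSO itself was lower for SLC7A11 at 24 h than at 3 h in TMD8 (-1.01 ± 0.36), with 77.2 and 61.4 CPM at 3 h. In HBL1 SLC7A11 was at 3.79 and 5.67 CPM with NGI-1, 2.9 and 2.67 with acalabrutinib and 2.97 and 2.38 with copanlisib, against 4.08 and 4.33 with DMSO, and was not called.

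SLC1A4 at 24 h had 121 and 125 CPM with NGI-1, 113 and 106 with acalabrutinib and 108 and 109 with copanlisib, against 69.1 and 73 with DMSO in TMD8 (0.79, 0.63 and 0.61 ± 0.09). In HBL1 it had 199 and 200, 152 and 142, and 170 and 171 CPM, against 144 and 135, and was called with NGI-1 (0.52 ± 0.09) and copanlisib (0.29 ± 0.09). The copanlisib call in HBL1 was lost without DMSO replicate 2 (0.088). SLC1A4 was itself called lower in TMD8 DMSO at 24 h than at 3 h, and DMSO reached 97.2 CPM at 3 h. DDIT4 in HBL1 had 5.58 and 5.79 CPM with NGI-1, 6.85 and 5.86 with acalabrutinib and 6.83 and 6.23 with copanlisib, against 2.69 and 1.56 with DMSO (1.38 ± 0.35, 1.54 ± 0.34 and 1.58 ± 0.34). The NGI-1 call was lost without DMSO replicate 2 (0.066). DMSO had 9.39 and 11.4 CPM of DDIT4 at 3 h in HBL1, and its change to 24 h was -2.25 ± 0.31, so the treated libraries at 24 h lay between the early and late controls. In TMD8 DDIT4 was lower with copanlisib (-0.57 ± 0.17, adjusted p = 0.0079), but not once copanlisib replicate 1 (0.054) or DMSO replicate 2 (0.072) was left out.

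**Figure D5:**
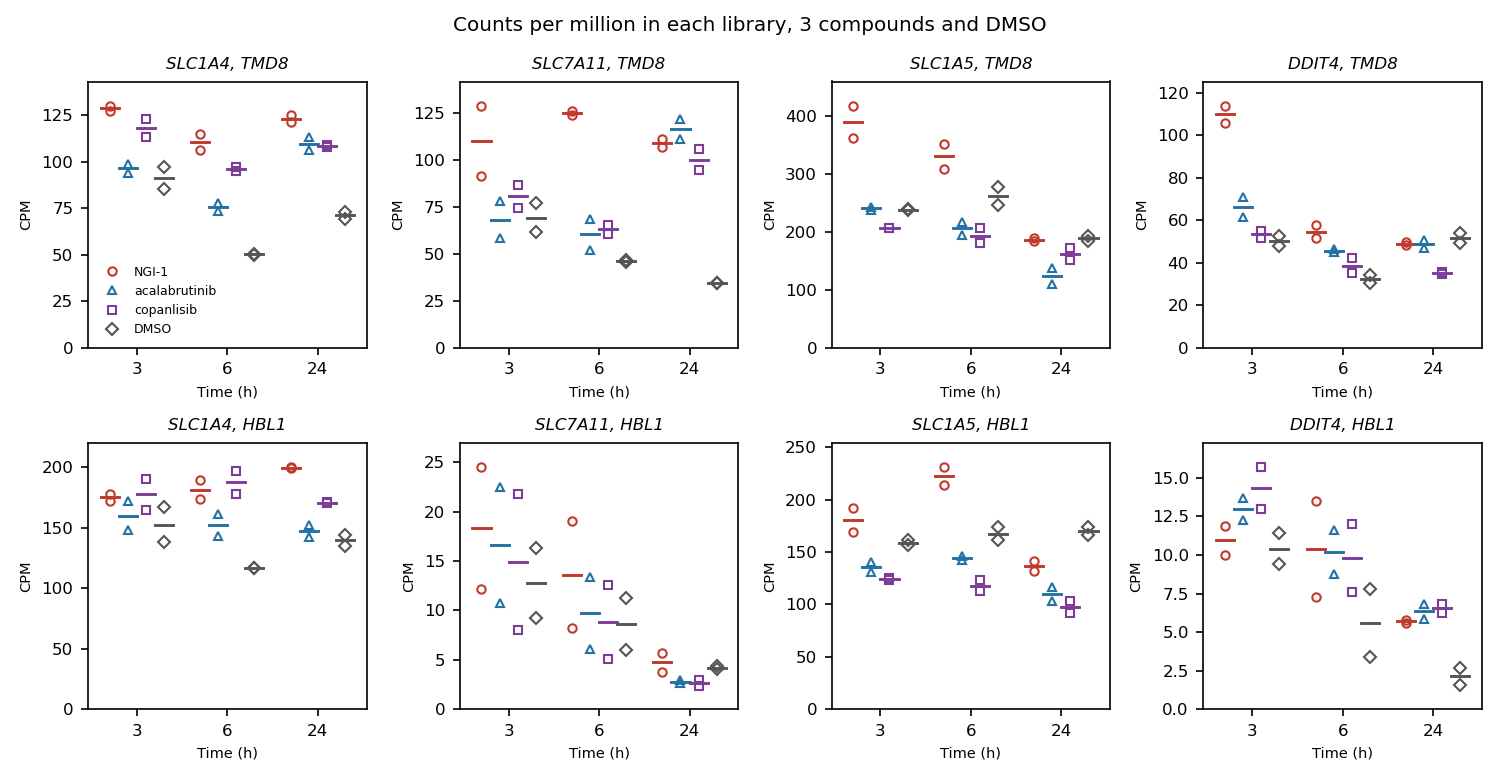
CPM of SLC1A4, SLC7A11, SLC1A5 and DDIT4 by time in each line, for NGI-1, acalabrutinib, copanlisib and DMSO, with a point per library, short bars at group means and axes starting at 0. SLC7A11 in TMD8 separates at 24 h, with 94.6 to 122 CPM in treated libraries against 34.3 and 34.6 in DMSO. SLC1A5 is above DMSO with NGI-1 early and below it with the kinase inhibitors later.

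The difference between the lines was tested for each compound at 24 h as the effect in TMD8 minus that in HBL1. It was called for 3 members with NGI-1, 5 with acalabrutinib and 7 with copanlisib, against 2.57%, 4.19% and 4.22% of all genes. SLC7A5, the large neutral amino acid transporter, had 882 and 891 CPM with NGI-1 against 574 and 597 with DMSO in TMD8, and 244 and 233 CPM against 299 and 268 in HBL1. It lay above DMSO in TMD8 and below it in HBL1, and the difference was 0.85 ± 0.17 (adjusted p = 0.0025). SLC7A1, the arginine transporter, had 1490 and 1340 CPM with copanlisib against 1250 and 1160 with DMSO in TMD8, and 186 and 161 against 289 and 239 in HBL1 (difference 0.84 ± 0.12, adjusted p = 2.3e-06). DDIT4 ran the other way, with differences of -1.46 ± 0.39, -1.62 ± 0.38 and -2.15 ± 0.38 for NGI-1, acalabrutinib and copanlisib. With either kinase inhibitor 0 members were called at 3 or 6 h, in edgeR and in DESeq2, with 0 to 2 at an unadjusted p under 0.05 (0% and 0.151% of all genes for acalabrutinib, 0.0576% and 0.562% for copanlisib).

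Compared directly with the kinase inhibitors, NGI-1 gave higher levels of 18 to 29 members in TMD8 at 3 and 6 h and of 1 to 13 in the other comparisons, and 0 members were lower in any of the 12 comparisons. Of all genes, 0.0648%, 0.98% and 0.202% were lower than with acalabrutinib in TMD8 at 3, 6 and 24 h, and 0.137%, 1.15% and 1.64% in HBL1. Lower than with copanlisib were 0.72%, 2.52% and 0.288% in TMD8, and 1.18%, 2.8% and 2.28% in HBL1. Against acalabrutinib, 18, 24 and 6 members were higher in TMD8 at 3, 6 and 24 h (0.915%, 2.32% and 1.1% of all genes), and 1, 7 and 1 in HBL1 (0.8%, 2.33% and 1.61%). Against copanlisib, 24, 29 and 1 were higher in TMD8 (1.51%, 3.26% and 1.07%), and 3, 13 and 5 in HBL1 (1.89%, 3.94% and 2.66%). CHAC1 differed most, by 3.43 ± 0.49 from acalabrutinib and 3.64 ± 0.49 from copanlisib at 3 h in TMD8. TRIB3, with 120 and 116 CPM under NGI-1 at 3 h, stood against 54.2 and 51.7 under acalabrutinib (1.16 ± 0.28, adjusted p = 0.042) and 42.4 and 46.2 under copanlisib (1.42 ± 0.29, adjusted p = 0.0044). SLC1A5 was called against both inhibitors in both lines at 3 and 6 h. In HBL1 at 6 h it had 231 and 214 CPM with NGI-1, against 146 and 142 with acalabrutinib (0.63 ± 0.09) and 123 and 113 with copanlisib (0.91 ± 0.10). At 24 h CARS was higher with NGI-1 than with acalabrutinib in TMD8 (0.65 ± 0.07, adjusted p = 5.5e-08).

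Between copanlisib and acalabrutinib 1 member was called over 6 comparisons, CARS in TMD8 at 24 h, with 163 and 144 CPM against 116 and 110 (0.45 ± 0.07, 95% interval 0.29 to 0.60, adjusted p = 0.00023, with 0.461% of all genes called). The other 5 gave 0 in edgeR and in DESeq2, with 0 to 8 members at an unadjusted p under 0.05, against 0.339% and 0.281% of all genes in TMD8 at 3 and 6 h and 0.0216%, 0.0937% and 0.101% in HBL1 at 3, 6 and 24 h. DESeq2 called 3 in TMD8 at 24 h. The single call over the 6 comparisons became 0 without copanlisib replicate 1 of TMD8 at 24 h, and 2 without acalabrutinib replicate 1 or copanlisib replicate 2 of that time. It became 5 without a filter and 5 with a separate fit of each line. The lack of further calls does not show that the inhibitors acted alike.

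The lines also differed before any compound. Over the 3 DMSO times 34 of 41 members were called between TMD8 and HBL1 (16 higher and 18 lower in TMD8), near the 78.5% of all genes. The 18 include STC2, which passed the filter through HBL1 only, so its call is no separate result. SLC7A1 had 1160 to 1970 CPM over the 6 DMSO libraries of TMD8, with a median of 1750, against 239 to 471 and a median of 400 in HBL1. CARS had 272 to 298 CPM (median 283) in TMD8 and 96.3 to 148 (median 109) in HBL1. DDIT4 ran from 30.6 to 54.1 in TMD8 (median 48.6) and from 1.56 to 11.4 in HBL1 (median 5.58). SESN2 was the other way round, at 4.35 to 8.77 in TMD8 (median 7.15) and 19.7 to 53.3 in HBL1 (median 30.1). None of these ranges overlapped between the lines.

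DMSO cultures changed with time as well, 24 h minus 3 h. In TMD8 9 members were higher and 10 lower (16.9% and 15.9% of all genes), and in HBL1 5 were higher and 11 lower (20.7% and 19%). Without 3 h DMSO replicate 2 the 16 calls in HBL1 became 9. Each of the 4 DMSO libraries left out lowered the 19 of TMD8, to between 10 and 13. SLC7A1 was lower in both lines (-0.70 ± 0.08 and -0.82 ± 0.08), as were SLC7A5 (-0.67 ± 0.12 and -0.44 ± 0.12), SLC7A11 and TRIB3. XPOT, MARS, IARS and LARS were higher in both, by 0.25 to 0.36. In TMD8 AARS, NARS, EPRS, TARS and PSPH were higher too, and SLC1A4 was lower. AARS ran from 162 to 276 CPM over the TMD8 DMSO libraries, with the highest level at 24 h. TRIB3 in TMD8 DMSO had 30.9 and 29.8 CPM at 24 h, against 58.1 and 56.8 at 3 h (-0.92 ± 0.31). The 24 h comparisons therefore stand on controls in which these members had moved since 3 h.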

How the data were processed

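The authors deposited 1 table of read counts per gene for 48 total RNA libraries, made with HTSeq on hg19 per the submitters' processing notes; the aligner, versions and strand setting are not given in the sources used here. A row of total reads was dropped, and 3449 genes without an identifier held 0.81% of reads. Reads of near-identical copies or overlapping genes may be shared.

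Genes kept by edgeR's filterByExpr (13881) were scaled by TMM and fitted with edgeR 4.0.16 in R 4.3.3, a robust quasi-likelihood model with trended dispersion over the 24 groups (24 residual degrees of freedom, biological coefficient of variation 7.3%). SE is the log2 fold change divided by the root of F, and p-values were adjusted by the Benjamini-Hochberg method over all tested genes of each of 54 comparisons, 18 of them with DMSO. Libraries held 7165377 to 11999050 reads, and intervals cover the spread between libraries only. Alternatives were RLE scaling, no filter, a stricter one (a mean log2 CPM of 1 or more, and 2 or more libraries reaching 1 CPM), DESeq2 1.42.0, separate fits of each line, replicate blocks, and leaving out each library with the tested genes and trended dispersion of the full fit kept.

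Replicate numbers are shared between groups, but the labels tie them to no culture or day, so the fit has no block. The members and lists were chosen with earlier results of these data known. All members may be named; full values go to the called members of each role with the largest changes and to ATF4, DDIT3, TRIB3, CHAC1 and ASNS, and of other lists up to 3 called genes are named per comparison. Other genes and members are named with values where a sentence turns on them, and were then chosen after their values were seen.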

Additional observations from a re-analysis of the deposited data

Results flagged for a closer look

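For 15 combinations of member and compound the effect at 24 h differed between the lines by the edgeR test of that difference (TMD8 minus HBL1, log2, with its SE and adjusted p). With NGI-1 these were SLC7A5 at 0.85 ± 0.17 (0.0025), SLC7A1 at 0.56 ± 0.12 (0.0023) and DDIT4 at -1.46 ± 0.39 (0.03). DDIT4 passed the test in TMD8 at 3 and 6 h and in HBL1 at 24 h. Its difference at 24 h was no longer called without any one of 6 of the 8 libraries (0.052 to 0.22). The SLC7A1 difference was lost without DMSO replicate 1 of HBL1 (0.078).

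With acalabrutinib the differences were -1.14 ± 0.25 for ATF5 (0.006), -0.71 ± 0.11 for CARS (1e-05), -1.62 ± 0.38 for DDIT4 (0.0072), 0.55 ± 0.13 for SLC1A4 (0.0047) and 0.63 ± 0.12 for SLC7A1 (0.00034). CARS fell in both lines and by more in TMD8. The DDIT4 difference was lost without acalabrutinib replicate 1 (0.052) or DMSO replicate 2 (0.097) of HBL1, and the other 4 held with each library left out.

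With copanlisib the differences were 1.53 ± 0.40 for ATF3 (0.021), -0.96 ± 0.25 for ATF5 (0.023), -2.15 ± 0.38 for DDIT4 (0.00023), 0.58 ± 0.13 for SLC1A5 (0.0051), 0.84 ± 0.12 for SLC7A1 (2.3e-06), 0.67 ± 0.17 for SLC7A5 (0.016) and 0.93 ± 0.25 for VEGFA (0.027). ATF3 had 36.8 and 37.2 CPM with copanlisib against 35.6 and 33.6 with DMSO in TMD8, and 2.37 and 1.93 against 6.28 and 5.41 in HBL1. DDIT4 and SLC7A1 held with each library left out. The other 5 were each lost without at least 2 libraries, ATF3 at 0.059 to 0.13, ATF5 at 0.057 to 0.13, SLC1A5 at 0.055 and 0.058, SLC7A5 at 0.068 to 0.1 and VEGFA at 0.059 to 0.21.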

How the results depend on the processing

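Of 203 member calls against DMSO, 182 were kept under every other setting, 105 with each library left out in turn, and 0 reversed. RLE scaling kept 197, no filter 194, the stricter filter 201, DESeq2 198, separate fits of the lines 190, and each replicate block 203. Other settings mostly added calls, and the cause was not tested. Without a filter the counts became 26 (14 with the filter) for NGI-1 in TMD8 at 3 h, 4 (0) and 14 (3) in HBL1 at 3 and 6 h, 4 (2) for acalabrutinib in TMD8 at 6 h, 2 (1) and 16 (8) for copanlisib in TMD8 at 3 and 6 h and 2 (1) in HBL1 at 3 h, 39 (15) for line differences, 214 (132) for NGI-1 against the kinase inhibitors and 5 (1) for copanlisib against acalabrutinib. Separate fits gave 24 for NGI-1 in TMD8 at 3 h, 6 and 2 for acalabrutinib at 6 h in TMD8 and HBL1, 2 and 16 for copanlisib in TMD8 at 3 and 6 h, and 5 for copanlisib against acalabrutinib. DESeq2 gave 2 and 5 for NGI-1 in HBL1 at 3 and 6 h, 2 for copanlisib in HBL1 at 3 h and 3 for copanlisib against acalabrutinib, and the stricter filter 2 and 2 for those last comparisons. NGI-1 in HBL1 at 6 h gave 2 with RLE and 2 with separate fits.

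Deviations of libraries with the same number correlated at 0.05 to 0.18 in TMD8, where 6 of 9 values were below 0.1, and at 0.12 to 0.24 in HBL1. The labels do not say what a number stands for, and with 2 numbers a shared effect of the number was not tested. The replicate block over all libraries gave 1 for NGI-1 in HBL1 at 3 h, 2 for copanlisib in HBL1 at 3 h and 4 for copanlisib against acalabrutinib. The replicate block within line and time gave 36 and 34 for NGI-1 in TMD8 at 3 and 6 h, 8, 24 and 34 in HBL1 at 3, 6 and 24 h, 2, 2, 10 and 16 for acalabrutinib in TMD8 and HBL1 at 3 h and TMD8 and HBL1 at 6 h, 12, 9, 22 and 19 for copanlisib in the same order, 78 line differences, 180 time changes, 308 between NGI-1 and the kinase inhibitors, 34 between these, and 29 and 27 for DMSO over time in TMD8 and HBL1.

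With a library left out, counts for NGI-1 in TMD8 ranged 8 to 13, 12 to 17 and 11 to 15 at 3, 6 and 24 h, and in HBL1 0 to 1, 1 to 4 and 11 to 20. For acalabrutinib they ranged 1 to 2 and 18 to 24 in TMD8 at 6 and 24 h and 0 to 2 and 13 to 23 in HBL1, with 0 in both lines at 3 h. For copanlisib they ranged 0 to 1, 2 to 4 and 17 to 19 in TMD8, and 0, 4 and 23 to 28 in HBL1. Line differences ranged 10 to 15, time changes 58 to 91, NGI-1 against the kinase inhibitors 110 to 136, copanlisib against acalabrutinib 0 to 2, DMSO over time 10 to 13 in TMD8 and 9 to 15 in HBL1, and DMSO between the lines 33 to 35. With 2 libraries per group, small changes of members at a few CPM, such as CHAC1 and DDIT4 in HBL1, have wide errors.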
